A study of Mus musculus with 8 samples.

Results

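This account describes the transcriptome of unmodified mouse pancreatic islets, chosen as the samples labelled WT, which are 4 of the 8 samples in the series. Each is an RNA library of islets from 12-week-old male WT mice, with no treatment. The other 4 samples carry a Wfs1KO genotype and were not used, so no genotypes are compared. Per the labels, islets were released by digesting the pancreas with collagenase through its duct, purified on a density gradient, and used for sequencing of polyadenylated RNA. The labels used here give neither the strain nor whether a sample pooled the islets of several mice, so the spread between the 4 libraries may be partly technical.

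Islets are the clusters of endocrine cells scattered through the pancreas. Beta cells make insulin and amylin, alpha cells glucagon, delta cells somatostatin, PP cells pancreatic polypeptide and epsilon cells ghrelin. Beta cells take up and phosphorylate glucose in proportion to its concentration; the ATP they make closes ATP-sensitive potassium channels, the membrane depolarises, calcium enters through voltage-gated channels, and insulin granules fuse with the plasma membrane. The surrounding exocrine tissue consists of acinar cells, which secrete digestive enzymes, and of ducts, and some of it stays with islets after purification.

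The 4 libraries held 19635870, 17146825, 15810830 and 21552731 exon counts in WT replicates 1 to 4, over 24537 genes. Levels are given as CPM (counts per 1000000 exon counts of the library) and, for most comparisons between genes, as CPM per kb of the deposited exon length. Where genes stand side by side in CPM alone, their lengths are not taken into account. Errors are SDs over the 4 libraries (n = 4). The deposited length is that of 1 RefSeq entry per gene. Of 87 pairs of genes compared here, 67 kept their direction with the union of GENCODE exons as the length and 20 turned, and 30 ratios moved over 1.5-fold. The pairs that turned are named beside their values, and the order of whole lists is given by the deposited length. Set against the label, the 16 beta cell markers took 17.5% ± 1.88 of exon counts, the 12 alpha cell markers 1.88% ± 0.146 and the 6 delta cell markers 0.220% ± 0.0109, beside 5.94% ± 2.26 for the acinar markers. Most of each islet share came from hormone genes: Ins2 took 11.1%, Ins1 3.75%, Iapp 1.93%, Gcg 1.63% and Sst 0.201% of exon counts. Of the beta cell markers 14 had a mean of at least 100 CPM, against 1863 of all 24537 genes. All of these islet markers reached 1 CPM, but so did 58.1% of all genes, 16 of 16 stellate cell and pericyte markers and 15 of 15 macrophage markers. Ddx3y and Eif2s3y, genes of the Y chromosome, stood at 129 ± 12.6 and 67.9 ± 6.77 CPM, and Xist, the RNA of the inactive X chromosome of females, at 1.91 ± 0.798 CPM. In bulk RNA, fewer cells of a type and less RNA per cell cannot be told apart.

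The 150 bases before the annotated start of 5 hormone genes are printed, 5′ to 3′ on the gene's strand, from RefSeq (GRCm38.p6, the build of mm10). Distances are counted from that annotated start. Where transcription starts in these islets was not measured, so a promoter sequence may also lie outside the window. Capitals mark 3 short sequences searched on both strands: TATAAA, the core of the TATA box that positions RNA polymerase II, CATCTG, an E box of the kind that NEUROD1 and its partners bind, and TGACG, a part of the site that CREB binds. Ins1 is at chr19:52264147-52264296 on the plus strand, Gcg at chr2:62483654-62483803 on the minus strand, Iapp at chr6:142298275-142298424 on the plus strand, Sst at chr16:23890845-23890994 on the minus strand and Ppy at chr11:102101320-102101469 on the minus strand.
Ins1: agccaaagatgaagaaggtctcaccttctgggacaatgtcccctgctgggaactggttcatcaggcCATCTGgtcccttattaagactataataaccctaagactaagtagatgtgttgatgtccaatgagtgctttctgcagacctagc
Gcg: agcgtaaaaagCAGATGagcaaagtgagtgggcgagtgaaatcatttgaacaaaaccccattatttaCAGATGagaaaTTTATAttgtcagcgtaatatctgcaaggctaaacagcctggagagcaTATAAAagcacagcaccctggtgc
Iapp: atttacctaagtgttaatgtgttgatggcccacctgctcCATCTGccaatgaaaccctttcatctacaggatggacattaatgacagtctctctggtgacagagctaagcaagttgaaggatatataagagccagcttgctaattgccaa
Sst: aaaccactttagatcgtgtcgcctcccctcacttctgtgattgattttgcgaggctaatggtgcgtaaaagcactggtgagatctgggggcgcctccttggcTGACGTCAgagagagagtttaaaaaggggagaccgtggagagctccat
Ppy: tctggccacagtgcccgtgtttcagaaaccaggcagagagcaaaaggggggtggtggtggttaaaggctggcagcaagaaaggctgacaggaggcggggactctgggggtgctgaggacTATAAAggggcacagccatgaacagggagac

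The first letter of TATAAA lay 24 bases before the start of Gcg and 31 before that of Ppy. A further TATAAA, on the opposite strand, lay 72 bases before the start of Gcg. Only exact matches were marked, so variants of these sequences are not shown. CATCTG began 84 bases before the start of Ins1 and 111 before that of Iapp. On the opposite strand it lay 139 and 83 bases before the start of Gcg. The Sst window held TGACG 48 bases before the start and again, on the other strand, 45 bases before it, so that the 2 matches overlap in the palindrome TGACGTCA. Among the 17601 genes with such a window, 7.51% held TATAAA, 7.34% CATCTG and 15.9% TGACG. No window was matched for Ins2.

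A TATAAA on the gene's own strand, starting 20 to 40 bases before the start, was found in 8 of the 77 windows (10.4%) available for the 100 most abundant genes, and in 2.72% of all windows. The 8 genes among the 100 most abundant were Gcg, Ppy, the acinar enzyme genes Pnlip, Cela1, 2210010C04Rik and Try4, the acinar gene Reg1, and the noncoding RNA Meg3. A match describes the letters of the window and was not tested as a binding site.

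Transcripts of 8 islet hormone genes took 18.99% ± 1.96 of all exon counts. The insulin genes held 78.1% ± 1.398 of these. Ins2 (NM_001185084, chr7:142678656-142679726, minus strand, mm10), the mouse gene that corresponds to human INS, stood at 105408, 114912, 94799 and 128357 CPM in replicates 1 to 4. It was the most abundant transcript of every library and alone took 11.1% ± 1.43 of exon counts. Ins1 (NM_008386, chr19:52264297-52265009, plus strand), the second insulin gene of rodents, stood at 36860, 34306, 35280 and 43753 CPM, or 3.75% ± 0.427 of exon counts. Replicate 4 was highest in both genes.

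Per kb, Ins2 was 3.02 ± 0.287 times as abundant as Ins1, with ratios of 2.92, 3.42, 2.74 and 2.99 in replicates 1 to 4. With GENCODE lengths (1312 bases for Ins2 and 1062 for Ins1, against 579 and 591 as deposited), the ratio was 2.39 ± 0.228. Ins2 was above Ins1 in 4 of 4 libraries under either length. Only 0.806% of the 50-base words of Ins2 and 0.691% of those of Ins1 also occurred in a transcript of another gene.

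Iapp, which encodes amylin, a peptide stored and released with insulin, was the third transcript, at 19456, 19135, 18452 and 20316 CPM. Its spread of 4.00% (SD over mean) was the smallest among the hormone genes. Gcg, the gene of glucagon, followed at 16287, 14666, 15956 and 18334 CPM. Per kb, Gcg reached 0.537 ± 0.0366 of the level of Iapp. Replicate 4 was again the highest library for both.

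The hormones of the rarer endocrine cells were lower. Per kb, Gcg was 3.06 ± 0.731 times Ppy and 4.45 ± 0.195 times Sst. Sst, the gene of somatostatin, which restrains insulin and glucagon release, stood at 1989, 1926, 1962 and 2166 CPM, with a spread of 5.31%. Ppy, the gene of pancreatic polypeptide, stood at 1811, 2800, 2636 and 2413 CPM, and replicate 1 lay below the other libraries. Pyy, the gene of the related peptide YY, stood at 1144, 1243, 1540 and 1580 CPM, and replicates 1 and 2 lay below 3 and 4. Ghrl, the gene of ghrelin, which marks epsilon cells, had only 40, 92, 44 and 64 counts, a mean of 3.29 ± 1.44 CPM.

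Per kb the order of the hormones was Ins2 (191484), Ins1 (63536), Iapp (28028), Gcg (15060), Ppy (5084), Sst (3379), Pyy (2476) and Ghrl (5.97). Each was above the next in 4 of 4 libraries, and no ranges of neighbours in this order overlapped. The smallest step was from Sst to Pyy, a log2 difference of 0.46 ± 0.20, and that from Ppy to Sst was 0.57 ± 0.30. The plot of secretory genes shows these levels by library.

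**Figure D1:**
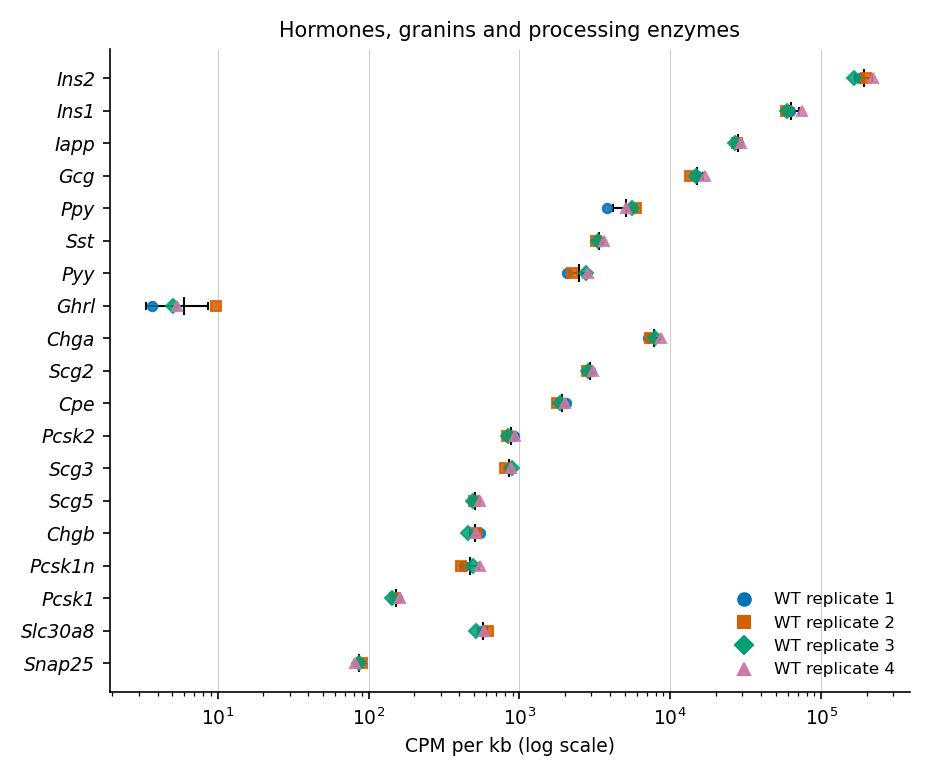
Levels of islet hormones, granins and processing enzymes in CPM per kb (log scale), with 1 point per WT library, the mean as a vertical tick and the SD over 4 libraries as a horizontal bar. Ins2 and Ins1 lie highest, at 191484 and 63536 CPM per kb, and Ghrl lowest, at 5.97.

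Counts were concentrated in few genes. The 10 most abundant genes of a library took 23.3% ± 1.48 of its exon counts and the top 100 took 35.0% ± 1.42. It took 599, 649, 538 and 532 genes in replicates 1 to 4 to reach 50% of the counts, and 5703 ± 131 genes to reach 90%. At the low end, 14266 genes (58.1% of the table) had a mean of at least 1 CPM, 13617 reached 1 CPM in every library, and 2297 had no count in any. Only 55 genes had a mean of at least 1000 CPM.

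**Figure D2:**
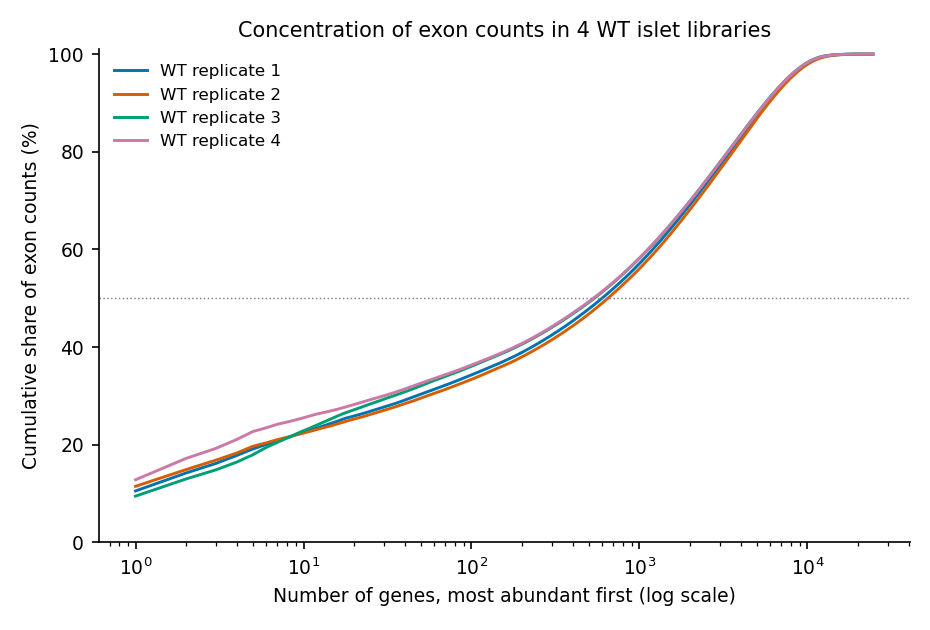
Cumulative share of exon counts (%) against the number of genes, most abundant first (log scale), with 1 line per WT library and a dotted line at 50%. The lines reach 50% at 532 to 649 genes, and replicate 4 starts highest, with 12.8% of its counts in Ins2.

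The top of the list mixed endocrine and exocrine transcripts. Of the 20 genes with the highest mean CPM, the endocrine secretory products and enzymes were Ins2, Ins1, Iapp, Gcg, Chga, Scg2, Pcsk2, Cpe and Ppy. The acinar enzyme genes Ctrb1, Cela2a, Pnlip, Cela1, Prss2, Cpa1, 2210010C04Rik, Cpb1 and Cel made up another 9. The remaining ones were Peg3, an imprinted zinc finger gene, and Rn45s, a ribosomal RNA precursor. Every library shared 17 genes among its top 20, out of 26 that were in the top 20 of any library.

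The machinery that packs hormones was abundant. The 18 genes of granins and prohormone processing, all at 1 CPM or more (against 58.1% of all genes), took 3.68% ± 0.203 of exon counts. Their median spread was 7.02%, against 6.90% over all genes of at least 5 CPM. Chga, the gene of chromogranin A, a granule matrix protein, led with 13527, 13941, 15146 and 16416 CPM. Scg2, the gene of secretogranin II, followed at 7308, 6997, 7091 and 7617 CPM. Each of Chga, Scg2 and Cpe, the carboxypeptidase that trims basic residues from prohormones, was above the next per kb in 4 of 4 libraries without overlap, at 7767, 2924 and 1913 CPM per kb.

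The convertases that cut prohormones differed in level. Pcsk2, the convertase that with PCSK1 cuts proinsulin and that yields glucagon from its precursor, stood at 4337, 3923, 3968 and 4432 CPM. Pcsk1 stood at 388, 377, 360 and 401 CPM. Per kb Pcsk2 was 5.77 ± 0.182 times Pcsk1, a ratio of 5.50 to 5.91 in the single libraries. Scg5, which encodes the PCSK2 chaperone 7B2, stood at 511 ± 23.8 CPM per kb, Chgb (chromogranin B) at 508 ± 39.9 and Pcsk1n, which encodes the PCSK1 inhibitor proSAAS, at 472 ± 64.0. The ranges of these last 3 overlapped, and with GENCODE lengths Scg5 stood at 0.787 ± 0.0542 of Chgb. Pam, the amidating enzyme, lay at 169 ± 13.0 CPM per kb and Furin, the convertase of the general secretory pathway, at 29.9 ± 3.25.

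All 34 genes of the granule membrane and of exocytosis reached 1 CPM, against 58.1% of all genes. Of them, 16 reached 100 CPM, against 1863 of all 24537 genes. Together the 34 genes took 0.830% ± 0.0218 of exon counts. Slc30a8, the zinc transporter that loads insulin granules with zinc, stood at 1074, 1176, 977 and 1101 CPM and led the list per kb at 571 ± 43.3. Syt13, an atypical synaptotagmin, reached 345 ± 36.1 CPM per kb, Ptprn2 and Ptprn, the granule membrane proteins known as islet autoantigens, 297 ± 9.14 and 126 ± 6.39, and Cplx2, a complexin, 167 ± 7.38. With GENCODE lengths Ptprn2 stood at 0.967 ± 0.0352 of Cplx2. Rab27a, a GTPase that docks granules, stood at 94.6 ± 2.46 CPM per kb, and the fusion protein genes Vamp2 at 93.0 ± 4.03 and Snap25 at 85.9 ± 3.86. Stx1a, the syntaxin that forms the fusion complex with SNAP25 and VAMP2, was lower, at 6.19 ± 0.447 CPM per kb, so Snap25 was 13.9 ± 0.953 times as high (5.16 ± 0.353 times with GENCODE lengths).

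Among genes of glucose entry, the transporter typical of mouse beta cells stood above its widespread relative. Slc2a2, the transporter GLUT2 of mouse beta cells, stood at 801, 720, 658 and 743 CPM. Per kb it was 61.4 ± 4.81 times Slc2a1, the widespread transporter GLUT1, which stood at 11.9 ± 0.481 CPM. With GENCODE lengths that ratio was 37.4 ± 2.93. Hk1, Hk2 and Hk3, the hexokinases of high glucose affinity, stood at 11.5 ± 0.796, 2.90 ± 1.08 and 0.843 ± 0.583 CPM. G6pc2, the islet glucose-6-phosphatase, was the most abundant gene of the list at 2000, 1925, 1889 and 2435 CPM.

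Further along the pathway, Aldoa stood at 242 ± 2.74 CPM per kb, Pkm (pyruvate kinase of the M type) at 192 ± 7.89, Pdha1, a subunit of pyruvate dehydrogenase, at 53.7 ± 0.722, and Pcx, pyruvate carboxylase, at 47.9 ± 3.79. Pdha1 was above Pcx in 4 of 4 libraries but stood at 0.989 ± 0.0697 of it with GENCODE lengths. Pkm was 23.8 ± 1.93 times Pklr, the liver-type enzyme, and 14.1 ± 1.14 times with GENCODE lengths. Beta cells are known to keep lactate handling low. Ldha, lactate dehydrogenase A, stood at 10.4, 11.0, 12.0 and 10.8 CPM, and Slc16a1, the transporter MCT1 for lactate and pyruvate, at 2.29, 2.33, 2.28 and 1.90 CPM. Of the words of Ldha, 16.65% also occur in another gene's transcript, against 0% of those of Slc16a1. The part of shared words in the low level of Ldha was not tested. Of the 23 listed genes that beta cells are known to keep low, 22 had a mean of at least 1 CPM (95.7%, against 58.1% of all genes). None had a mean of 100 CPM, against 1863 of all 24537 genes, so few would be expected in a list of this size. Together the listed genes took 0.0133% ± 0.00125 of exon counts.

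Some genes that every cell uses were listed at low levels. Gapdh, the glycolytic dehydrogenase, had only 76, 65, 51 and 72 counts, a mean of 3.56 ± 0.321 CPM, and 27.2% of its 50-base words also occur in another gene's transcript. The 83 cytosolic ribosomal protein genes took 0.490% ± 0.00588 of exon counts. The 55 of them that share at least 20% of their words with another gene had a median of 19.2 CPM, and the 28 that share less had a median of 37.9 CPM. How reads with several matching positions were counted is not given in the sources used here, and its part in these low levels was not tested. Eef1a1, a translation elongation factor with 59.2% shared words, still stood at 1395 ± 43.6 CPM, Rpl4 at 638 ± 10.7 and Rpl8 at 347 ± 13.5.

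By symbol families, 380 of 627 transcription factor genes (60.6%, against 58.1% of all genes) had a mean of at least 1 CPM, and together they took 1.78% ± 0.0730 of exon counts. Nkx6-1, which specifies and maintains beta cells, was highest in these families by the deposited length, at 173 ± 7.35 CPM per kb, or 313, 291, 313 and 321 CPM in replicates 1 to 4. Mlxipl, the glucose-responsive factor ChREBP, stood at 164 ± 35.1 CPM per kb, with 570, 781, 542 and 492 CPM, and replicate 2 lay above the others. Mlxipl was the higher of the pair with GENCODE lengths, Nkx6-1 then standing at 0.950 ± 0.210 of it and at 0.798 ± 0.125 of Atf4. Mafa, the activator of insulin transcription in mature beta cells, stood at 109 ± 12.6 CPM per kb.

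Below them lay a group of developmental regulators of the endocrine lineage at similar levels. Pax6 stood at 102 ± 9.96 CPM per kb, Neurod1 at 97.7 ± 7.64, Insm1 at 83.8 ± 8.02 and Nkx2-2 at 79.3 ± 2.34. Rfx6, Pdx1 and Isl1 followed at 74.3 ± 10.8, 72.9 ± 3.95 and 71.0 ± 6.97 CPM per kb, and Foxa2, a pioneer factor of endoderm, at 57.2 ± 2.21. From Mafa to Isl1 the ranges of each gene and the next overlapped. Within libraries, Pax6 was above Neurod1 in 4 of 4, by a log2 difference of 0.06 ± 0.04, and Neurod1 above Insm1 in 4 of 4, by 0.22 ± 0.06. The step from Isl1 to Foxa2 was a log2 difference of 0.31 ± 0.18, with no overlap. With GENCODE lengths 4 of these steps turned: Pax6 stood at 0.363 ± 0.00937 of Neurod1, Nkx2-2 at 0.901 ± 0.139 of Rfx6, Pdx1 at 0.963 ± 0.0501 of Isl1 and Isl1 at 0.908 ± 0.118 of Foxa2.

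Factors of the other endocrine cells were lower. Of the alpha cell factors, Irx2 stood at 8.97 ± 0.975 CPM per kb (23.7 ± 2.57 CPM) and Irx1 at 6.85 ± 0.757 (14.1 ± 1.56 CPM). Hhex, required in delta cells, stood at 12.8, 12.5, 12.1 and 12.1 CPM. For Irx1 and Irx2 replicate 4 was the highest library, as it was for Gcg.

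Neurog3, the determinant of endocrine progenitors, had 99, 81, 71 and 98 counts, 4.70 ± 0.248 CPM, and Pax4 had 9, 8, 1 and 7 counts. Hnf4a, a liver-enriched factor mutated in monogenic diabetes, stood at 10.05 ± 0.575 CPM per kb. Hox genes, which pattern the body axis, reached 1 CPM in 6 of 39 cases, against 58.1% of all genes. The highest, Hoxb4, stood at 2.91 CPM.

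Factors of the unfolded protein and amino acid responses ranked among the most abundant regulators. Atf4 stood at 171 ± 21.03 CPM per kb, with 335, 313, 283 and 251 CPM in replicates 1 to 4. Xbp1 stood at 134.03 ± 4.70 CPM per kb, and its libraries spanned only 286 to 311 CPM. Atf5, which is known to act downstream of ATF4, stood at 247, 298, 187 and 150 CPM, and Ddit3, which encodes CHOP, at 57.1, 59.4, 44.1 and 27.6 CPM. Exons of Il4i1 and Nup62 overlap Atf5 on the opposite strand, and exons of Gm4189 and Mars overlap Ddit3. Counting set no strand, so the levels of Atf5 and Ddit3 may hold reads of those genes. In Atf4, Atf5 and Ddit3 replicates 1 and 2 were above 3 and 4. Peg3, which the islet list holds, was higher than any of these at 397 ± 69.0 CPM per kb, and it too was higher in replicates 1 and 2.

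Of 39 genes whose human counterparts cause monogenic diabetes, 36 had a mean of at least 1 CPM (92.3%, against 58.1% of all genes). A mean of at least 100 CPM was found for 16, against 1863 of all 24537 genes. The 3 under 1 CPM were Zfp57 (0.509 CPM), Onecut1 (0.370) and Pax4 (0.328). Wfs1, the gene deleted in the samples not used here, which encodes the ER membrane protein wolframin, stood at 177, 158, 178 and 177 CPM, and replicate 2 was lowest. Eif2ak3, the ER stress kinase PERK, stood at 101.4 ± 8.32 CPM and Glis3 at 99.4 ± 4.32.

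The ATP-sensitive potassium channel, the target of sulfonylureas, is built of 4 pore subunits encoded by Kcnj11 and as many regulatory subunits encoded by Abcc8. Kcnj11 stood at 203, 201, 195 and 204 CPM, a spread of 2.13%. Abcc8 stood at 1434, 1670, 1435 and 1415 CPM, with replicate 2 above the others. Per kb Kcnj11 was 0.214 ± 0.0171 of Abcc8, so the RNAs of the partner subunits were not at equal levels.

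By symbol families, 164 of 271 ion channel genes (60.5%, near the 58.1% of all genes) reached 1 CPM. The families took 0.878% ± 0.0389 of exon counts. These families also take in Atp2a2 and Atp2a3, the pumps that fill the ER with calcium, at 299 ± 28.8 and 293 ± 13.2 CPM per kb. Among potassium channels proper, 49 of 85 reached 1 CPM (57.6%, near the 58.1% of all genes). Kcnk16, the tandem-pore channel TALK-1, was highest at 157 ± 21.2 CPM per kb, with 132, 120, 133 and 163 CPM. Kcnj11 followed at 64.5 ± 1.37, though with GENCODE lengths Kcnk16 was only 1.05 ± 0.132 times Kcnj11. Next came Kcnmb2, a subunit of large-conductance channels, at 52.6 ± 2.51 CPM per kb, and the ERG-type channels Kcnh6 and Kcnh2 at 38.1 ± 4.23 and 36.1 ± 1.91, the former at 0.972 ± 0.0809 of the latter with GENCODE lengths.

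The subunits of voltage-gated calcium channels, which admit the calcium that triggers secretion, reached 1 CPM in 19 of 26 cases (73.1%, against 58.1% of all genes). Among pore subunits Cacna1d, an L-type channel, was highest at 26.3 ± 1.49 CPM per kb, with 225, 253, 250 and 232 CPM. Cacna1a, the P/Q-type channel, stood at 17.0 ± 2.86 CPM per kb and Cacna1c, the other L-type channel of islets, at 7.77 ± 0.624. Per kb Cacna1c was 0.295 ± 0.0115 of Cacna1d, from 0.284 to 0.311 in the single libraries. Among auxiliary subunits Cacna2d1 stood at 39.1 ± 4.13, Cacnb3 at 27.9 ± 2.57 and Cacnb2 at 12.4 ± 1.18.

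Other channels followed. Among sodium channels Scnn1b, a subunit of the epithelial channel, stood at 47.3 ± 3.03 CPM per kb, above the voltage-gated Scn9a at 9.41 ± 0.387 and Scn3a at 4.85 ± 0.465. Trpm5, a calcium-activated cation channel, stood at 138, 133, 79.2 and 91.2 CPM, with replicates 1 and 2 above 3 and 4, while its relative Trpm4 stood at 17.0, 19.2, 19.4 and 17.7. Of the ER release channels, Itpr3 stood at 22.1 ± 0.713 CPM per kb and Itpr1 at 20.4 ± 1.12, against 0.108 ± 0.0201 for Ryr2, whose counts were 38, 38, 25 and 32, and Itpr3 was 209 ± 31.7 times Ryr2 (356 ± 54.1 times with GENCODE lengths). Stim1, the sensor of ER calcium, stood at 34.4 ± 1.66 CPM per kb. The glutamate receptor subunits Grik5 and Grin1 led the ligand-gated channels, at 23.9 ± 2.23 and 23.2 ± 1.77.

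Among G protein-coupled receptors, 155 of 335 reached 1 CPM (46.3%, against 58.1% of all genes). Glp1r, the receptor of the incretin GLP-1, stood at 240, 210, 171 and 175 CPM and led per kb at 136 ± 22.0. Sstr3, a somatostatin receptor, followed at 111 ± 7.18, and Gipr, the receptor of the incretin GIP, at 87.1 ± 14.2, with 139, 191, 151 and 137 CPM. Glp1r was 1.58 ± 0.349 times Gipr per kb, from 1.33 in replicate 2 to 2.09 in replicate 1. With GENCODE lengths Glp1r was lower than both, at 0.783 ± 0.173 of Gipr and 0.340 ± 0.0414 of Sstr3, so the order of these 3 rests on the length used. Gcgr, the glucagon receptor, lay lower at 22.2 ± 4.999 CPM per kb, with 41.8, 54.996, 41.1 and 31.7 CPM.

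Adgrg1, an adhesion receptor, stood at 75.4 ± 2.35 CPM per kb, and with GENCODE lengths Gipr was at 0.894 ± 0.173 of it. Ffar1, the fatty acid receptor GPR40, stood at 55.2 ± 5.16 CPM per kb, P2ry1, a receptor of extracellular nucleotides, at 36.9 ± 3.86, and Adra2a, through which adrenaline inhibits insulin release, at 36.6 ± 2.39. The ranges of P2ry1 and Adra2a overlapped. Casr, the calcium-sensing receptor, stood at 22.6 ± 1.54 and Gpr142, an amino acid receptor, at 22.5 ± 1.88. With GENCODE lengths Ffar1 stood at 0.360 ± 0.0657 of P2ry1 and Adra2a at 0.790 ± 0.0487 of Casr. Of 1472 olfactory and vomeronasal receptors, 3 reached 1 CPM (0.204%, against 58.1% of all genes). No count in any library was found for 670 of them, against 2297 of all 24537 genes. The 3 were Olfr558 (4.16 CPM), Vmn2r29 (3.08) and Olfr78 (2.85).

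Among receptor kinases and growth factor receptors, 59 of 66 reached 1 CPM (89.4%, against 58.1% of all genes). Insrr, the receptor related to the insulin receptor, which responds to alkaline pH, led with 896, 1155, 975 and 936 CPM, or 195 ± 22.5 per kb. The insulin receptor Insr stood at 13.0 ± 1.12 CPM per kb and Igf1r, the receptor of insulin-like growth factor, at 13.4 ± 1.13. Insrr was followed by Ddr1, a collagen receptor, at 72.3 ± 2.598 and Ret, the receptor of glial-derived factors, at 36.7 ± 1.53, with no overlap between neighbours.

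Of receptors of other classes, Il1r1, the receptor of interleukin-1, which impairs beta cells in inflammation, led at 856, 862, 863 and 1008 CPM, or 187 ± 15.4 per kb. Lrp11 stood at 90.4 ± 5.47, Il6ra, the interleukin-6 receptor, at 81.2 ± 1.76, Ghr, the growth hormone receptor, at 72.3 ± 2.80 and Plxnb2 at 71.5 ± 1.79. With GENCODE lengths Il6ra stood at 0.923 ± 0.0440 of Ghr and Ghr at 0.573 ± 0.0248 of Plxnb2. Of nuclear receptors, 35 of 47 reached 1 CPM (74.5%, against 58.1% of all genes). Nr1d2, a component of the circadian clock, stood at 39.6 ± 3.99 CPM per kb and Vdr, the vitamin D receptor, at 36.1 ± 3.46. Thra and Nr1d1 overlap on opposite strands and were counted with no strand option, so their levels of 32.7 ± 0.603 and 35.8 ± 4.46 may hold reads of each other.

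**Figure D3:**
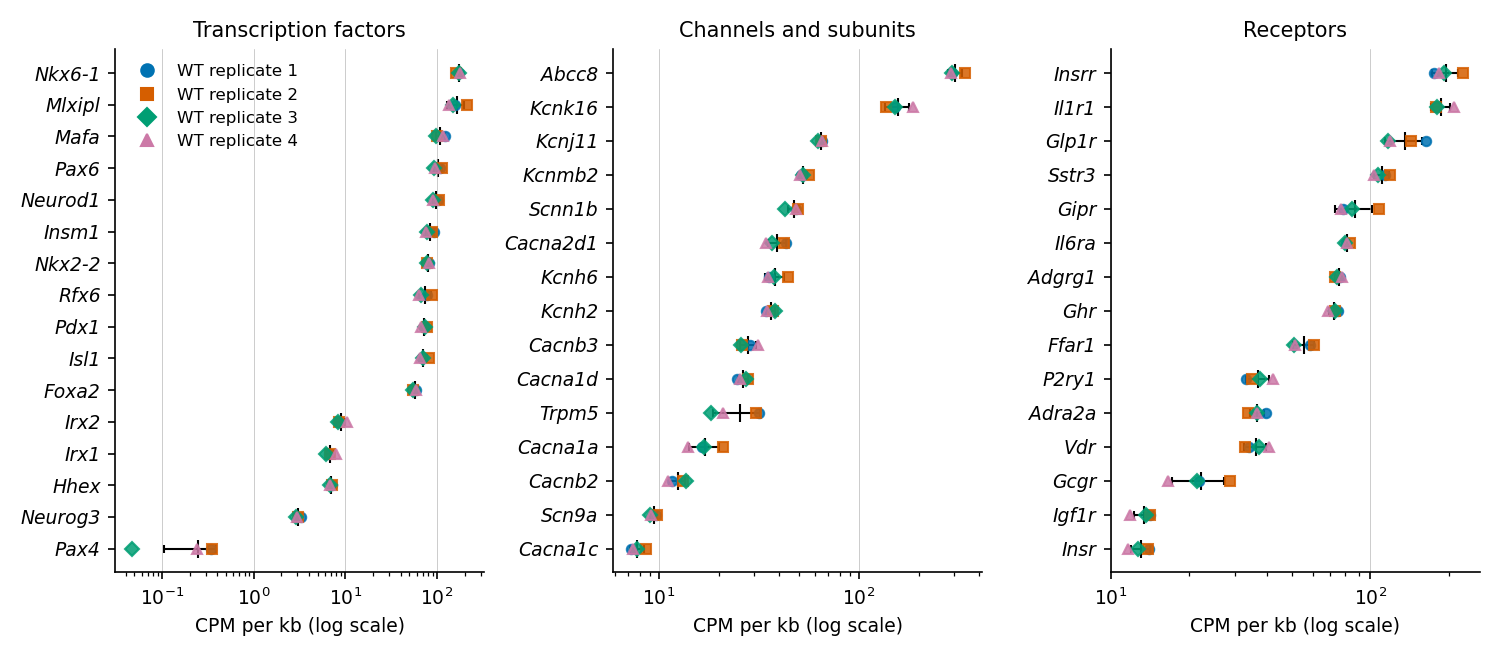
Levels in CPM per kb (log scale) of transcription factors, of channel genes with Abcc8, and of receptors, with 1 point per WT library, the mean as a vertical tick and the SD over 4 libraries as a bar. Nkx6-1 (173), Abcc8 (303) and Insrr (195) lead their panels, and replicates 1 and 2 lie above 3 and 4 for Trpm5 and Glp1r.

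Solute carriers reached 1 CPM in 248 of 381 cases (65.1%, against 58.1% of all genes) and took 1.48% ± 0.0366 of exon counts. After Slc30a8 and Slc2a2 came the mitochondrial phosphate carrier Slc25a3 at 173 ± 8.95 CPM per kb and the ADP/ATP carrier Slc25a4 at 151 ± 12.2. Slc38a4 stood at 102 ± 6.92, the fructose transporter gene Slc2a5 at 99.02 ± 5.21 and Slc7a2, a carrier of cationic amino acids, at 96.1 ± 11.5. The ranges of these last 3 overlapped. With GENCODE lengths Slc25a3 stood at 0.666 ± 0.0368 of Slc25a4 and Slc25a4 at 0.751 ± 0.0174 of Slc38a4.

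The 40 genes of ER folding and translocation all reached 1 CPM, against 58.1% of all genes. Of them, 30 reached 100 CPM, against 1863 of all 24537 genes. Together the 40 genes took 1.38% ± 0.0292 of exon counts. Their median spread of 4.42% compares with 6.90% over the 11351 genes of at least 5 CPM. Hspa5, the chaperone BiP, stood at 1342, 1272, 1338 and 1272 CPM. Hsp90b1 stood at 1208, 1202, 1184 and 1210 CPM, a spread of 0.973%. Per kb the order was Hspa5 (501), Hsp90b1 (438), P4hb (339), Pdia3 (336), Calr (323) and Ero1lb (278), the last being the ER oxidase typical of islets. With GENCODE lengths Hsp90b1 stood at 0.998 ± 0.0538 of P4hb.

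Of 32 listed peptide genes outside the islet hormones, 16 reached 1 CPM (50%, against 58.1% of all genes). A mean of 100 CPM was reached by 2, against 1863 of all 24537 genes. Ucn3, which encodes urocortin 3 of mature beta cells, stood at 337, 348, 279 and 346 CPM, and replicate 3 was lowest. Nucb2, the precursor of nesfatin, stood at 147 ± 5.39 CPM. Vip, a peptide known from pancreatic nerves, varied most of the peptides named here, at 31.6, 18.5, 70.0 and 81.6 CPM, and Npy stood at 7.69, 4.02, 10.2 and 10.3 CPM. In both, replicate 2 was lowest and replicate 4 highest. Schwann and neural cell markers summed to between 0.0197% and 0.0206% of exon counts, with no such order.

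Protein-coding genes held 98.5% ± 0.115 of exon counts and noncoding RNA genes 1.16% ± 0.120. Among listed long noncoding RNAs, 18 of 20 reached 1 CPM (90%, against 58.1% of all genes). Malat1, a nuclear RNA, stood at 1411, 1817, 1472 and 1468 CPM, and Meg3, of an imprinted cluster, at 1362, 1847, 1354 and 1197. Replicate 2 was the highest library for 13 of the 18, against 6320 of the 14266 genes of at least 1 CPM. Rn45s stood at 1940, 1895, 2296 and 2313 CPM after selection for polyadenylated RNA.

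Genes that respond at once to stimulation and handling of cells were present at modest levels. Jund stood at 168 ± 11.9 CPM, Btg2 at 118 ± 4.48, Egr1 at 44.8 ± 10.05 and Fos at 10.01 ± 2.31. Of 30 such genes, 25 reached 1 CPM (83.3%, against 58.1% of all genes). Proliferation genes took 0.0117% ± 0.00157 of exon counts. Mki67, present in cycling cells, stood at 12.2, 14.0, 6.89 and 14.1 CPM, lowest in replicate 3, which was lowest in 16 of the 22 proliferation genes at 1 CPM or more, against 4552 of all 14266 genes of that level.

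Exocrine RNA was the main admixture. The 42 acinar markers in the table took 5.91%, 4.43%, 9.15% and 4.28% of exon counts in replicates 1 to 4, a mean of 5.94% ± 2.26. Of them, 38 had a mean of at least 1 CPM (90.5%, against 58.1% of all genes). Replicate 3 was the highest library for 37 of these 38 genes, against 1964 of all 14266 genes of at least 1 CPM, the exception being Prss1, at 1.37 CPM, which was highest in replicate 4. Ctrb1, the gene of chymotrypsinogen B (NM_025583, chr8:111686510-111691010, minus strand), stood at 9168, 6691, 14976 and 7263 CPM. Pnlip, the gene of pancreatic lipase, stood at 6381, 4524, 8851 and 4124 CPM, and Cela2a, an elastase gene, at 6184, 4816, 10486 and 4545. The median spread of the acinar markers was 38.4%, against 6.90% over all genes of at least 5 CPM. The 3 genes Amy2a2, Amy2a3 and Amy2a4 had no count in any library, and Amy2a5 had 0, 0, 1 and 3. Amy2a5 shares 57.2% of its words with another gene, and Amy2b, which shares 40.3%, stood at 114 ± 46.2 CPM. The part of shared words in the low counts of these amylase genes was not tested.

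The hormone share moved the other way between the libraries at the ends. Replicate 3, with the highest acinar share, had the lowest hormone share at 17.1%, and replicate 4, with the lowest acinar share, had the highest at 21.7%. Replicates 1 and 2 had 18.3% and 18.9%. With the acinar markers taken out of the total, the hormone share was 20.2% ± 1.72. Both shares are parts of the same total, so they are not independent measures, and with 4 libraries no correlation was computed.

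The Reg genes, expressed by acinar cells and known to respond to injury, differed among themselves. Reg1 stood at 989, 686, 1148 and 723 CPM, the order of libraries seen in Ctrb1. Reg3g stood at 17.0, 10.03, 1.39 and 1.86 CPM. Replicate 1 was highest for the other 5 of the 6 Reg genes at 1 CPM or more, against 3461 of all 14266 genes. The sum of the ductal markers was even, at between 0.0930% and 0.0954% of exon counts, but not every member was. Krt7 led them with 305 ± 14.4 CPM and Krt18 followed with 124 ± 5.66, but Krt19, the more restricted duct keratin, stood at 2.45 ± 1.15, and Cftr, the chloride channel of ducts, at 0.500.

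Cells of vessels, connective tissue and blood contributed small and partly uneven shares. Endothelial markers took 0.0647% ± 0.00236, led per kb by Plvap, a protein of fenestrated endothelium, at 63.7 ± 4.67 CPM per kb, ahead of Kdr at 27.5 ± 1.78 and Pecam1 at 12.4 ± 0.532. Stellate cell and pericyte markers took 0.0234%, 0.0234%, 0.0252% and 0.0311%. Rgs5, a pericyte gene, was even at 130 ± 6.17 CPM, but Col3a1, a collagen gene of fibroblasts and stellate cells, stood at 12.9, 11.2, 17.5 and 40.2 CPM, highest in replicate 4. Col1a1 stood at 5.50, 4.67, 8.29 and 16.9 CPM in the same order.

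Immune markers were highest in replicate 2. Macrophage markers took 0.0344%, 0.0485%, 0.0272% and 0.0321% of exon counts, and replicate 2 was highest for 12 of 15, against 6320 of all 14266 genes of at least 1 CPM. Cd74, the invariant chain of antigen-presenting cells, stood at 123.5, 160, 97.2 and 100.4 CPM and the complement gene C1qa at 39.3, 48.1, 24.8 and 35.8. Lymphocyte markers took 0.00572%, 0.0108%, 0.00341% and 0.00247%, and replicate 2 was highest for all 7 that reached 1 CPM, beside the same 6320 of 14266 genes. Jchain, the joining chain of antibodies from plasma cells, stood at 19.3, 43.3, 6.45 and 0.464 CPM. Red cell and adipocyte markers summed to 0.00140% and 0.00136%, with Adipoq at 0.0651 CPM.

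**Figure D4:**
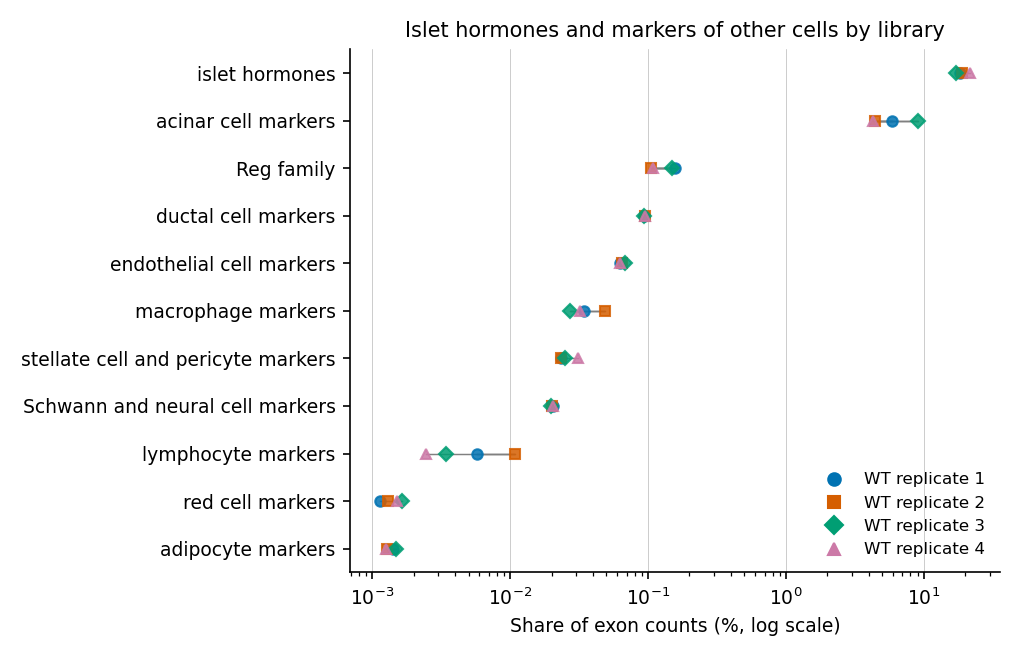
Share of exon counts (%, log scale) of the islet hormones and of marker lists of other cells, with 1 point per WT library and a line over the range of the 4. The acinar share spans 4.28% to 9.15% with replicate 3 highest, while the lymphocyte share spans 0.00247% to 0.0108% with replicate 2 highest.

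Most genes differed little between the 4 libraries. The common biological coefficient of variation, the spread beyond counting error estimated by edgeR, was 8.67% over 14547 genes. Genes of 1 to 5 CPM had a median spread (SD over mean) of 22.0%, of which counting alone gives 15.4%. Genes of 10 to 50 CPM had a median of 7.23% and those of 100 to 1000 CPM 5.28%. The 55 genes above 1000 CPM had a median of 10.5%, where counting alone gives 0.574%. Of these 55 genes, 16 are acinar markers and 7 are islet hormones. Replicates 2 and 4 differed most as a pair (11.2%) and replicates 3 and 4 least (7.05%).

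**Figure D5:**
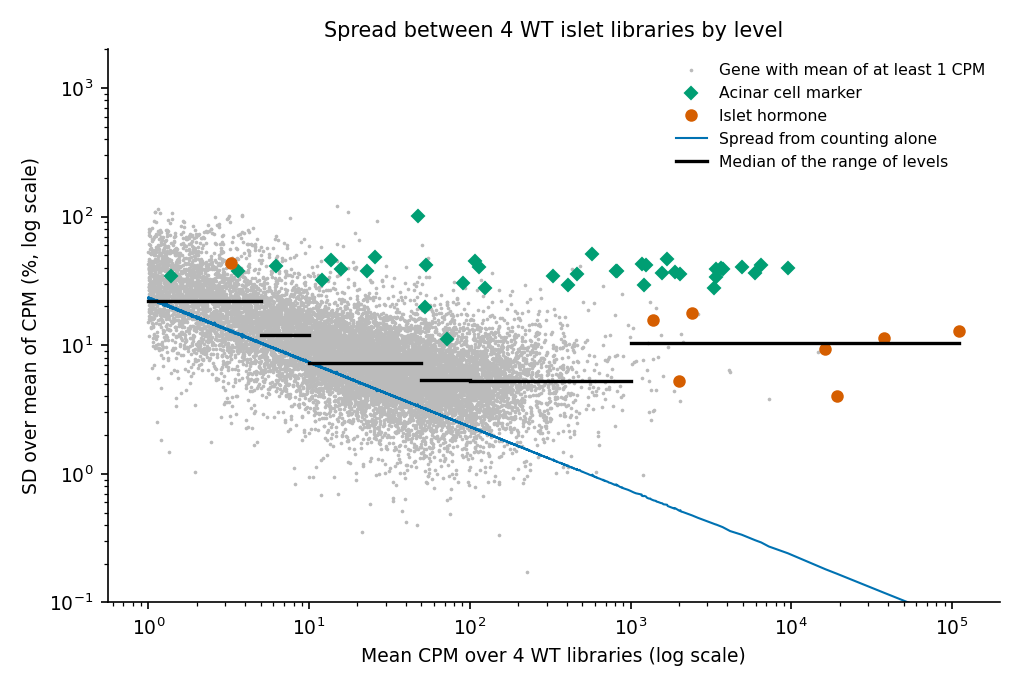
SD over mean of CPM (%, log scale) against mean CPM (log scale) for each gene of at least 1 CPM, with acinar markers as diamonds, hormones as filled circles, the median of each range of levels as black lines and the spread from counting alone as a blue line. Acinar markers lie above most genes of their level, with a median of 38.4%, and the 8 hormones lie between 4.00% for Iapp and 43.8% for Ghrl, which has few counts.

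The 12 genes of at least 5 CPM with the largest spread were Gm5771, Jchain, Prss3, Reg3g, Fn1, C3, C4b, Wdfy4, Hmha1, Col3a1, Arhgap30 and Col1a1. Prss3 is among the acinar markers, Jchain among the lymphocyte markers, Col3a1 and Col1a1 among the stellate cell markers and Reg3g in the Reg family, and the other 7 are in none of the lists. Gm5771 and Prss3, trypsinogen genes that share 55.4% and 66.1% of their words with other genes, stood at 2.14, 2.57, 40.8 and 14.1 CPM and at 14.4, 16.2, 116 and 42.8 CPM. Both were higher in replicate 4 than in replicate 1, as was Try4 (1401 and 1521 CPM in replicates 1 and 4), while Prss2 was lower there (3847 and 2549 CPM). Fn1, the gene of fibronectin, stood at 7.18, 18.95, 17.1 and 62.3 CPM, and the complement genes C3 and C4b at 17.5, 39.8, 12.8 and 7.10 and at 2.597, 6.01, 3.86 and 12.5 CPM. Of the 100 most variable genes, 40 were highest in replicate 2 and 39 in replicate 3, and 48 were lowest in replicate 4. Among all 14266 genes of at least 1 CPM, 6320 were highest in replicate 2 and 1964 in replicate 3, and 4466 were lowest in replicate 4. For replicate 2 the number among the most variable genes was thus no larger than its share over all genes.

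Nnt, a mitochondrial transhydrogenase of the list of glucose metabolism, stood apart from the rest of that list, at 36.5, 35.3, 56.4 and 91.7 CPM, with 96.3% of its words shared with another gene's transcript. It was singled out after its values were seen. The median spread of the 31 genes of that list with at least 5 CPM was 6.90%, the same as over all genes.

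At the other end, the 8 least variable genes of at least 100 CPM were Srp72, Usp7, Mkrn1, Atrn, Abca3, Atp2b1, Enah and Atxn10. Srp72, a component of the signal recognition particle that brings secretory proteins to the ER, stood at 226, 225, 225 and 226 CPM, a spread of 0.172%. Usp7, a deubiquitinase, had a spread of 0.337% and Atxn10 of 0.864%. These are the lowest of 1863 genes, and counting alone gives a median spread of 1.86% for genes of 100 to 1000 CPM.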

How the data were processed

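RNA of WT pancreatic islets was measured by sequencing of polyadenylated RNA in 4 libraries, which form 1 group, so there was no comparison of groups and no significance test. Per the submitters' processing notes, bcl2fastq, STAR 2.6.0a and HOMER 4.11.1 were used with mm10. Per the file headers, the deposited values are raw counts per gene, taken by HOMER over exons by a command that sets no strand, not normalized, and reduced to 1 transcript entry for each gene. Of the genes named in the text, 47 overlap an exon of a gene on the other strand. The treatment of reads that match several positions is not given in the sources used here.

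CPM is the count over the library's exon total, and CPM per kb divides by the deposited length. The exon totals were 60.0% to 73.3% of the tags named in the headers. Of 24537 genes, 23836 had a symbol in GENCODE M21 (GRCm38), and 563 of 566 listed genes were found. The common biological coefficient of variation came from edgeR 4.0.16 in R 4.3.3 with TMM scaling and filterByExpr (minimum count 10, minimum total 15), tested on simulated data. DESeq2 1.42.0 gave alternative size factors, and the remaining steps were run in Python 3.11.15. Shared words are the share of a gene's 50-base words, in its longest GENCODE transcript, that occur in another gene's. Promoter windows of 17601 genes came from RefSeq.

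The 48 gene lists and symbol families, and what is described, were chosen with earlier results of these data known. Named genes were all hormones, the top 20 by CPM and per kb, the leading members of each list per kb, the 12 most and 8 least variable genes, and key members by role. Genes given because they were the only ones on 1 side of a limit, Zfp57, Onecut1, Prss1, Hoxb4, Olfr558, Vmn2r29, Olfr78 and Adipoq among them, and Nnt were chosen after their values were seen. Some genes that the rule takes are given only in counts or are not reported here.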

Additional observations from a re-analysis of the deposited data

Results flagged for a closer look

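In 13 of 220 values checked (gene levels in CPM and list shares), 1 of the 4 libraries lay far from the other 3, its gap to the nearest, as a part of the whole range, being above Dixon's 95% critical value. Chance alone flags about 1 in 20 such groups, and 13 of 220 is near that rate. The values checked are neither independent nor a neutral set. Hmha1 and Arhgap30 were named for their large spread and Mkrn1 for its small spread, and Malat1 is part of the long noncoding RNA share. Counting alone gives a spread of 2.12% for Mkrn1, and Slc16a1 had only 45, 40, 36 and 41 counts. The values are given with no weighing of causes.

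Replicate 2 was the library apart in 8 of them. Hmha1 and Arhgap30 stood there at 18.7 and 12.7 CPM, against at most 6.68 and 4.43 in the others. Malat1 stood at 1817 CPM against at most 1472, and the listed long noncoding RNAs together at 0.555% of exon counts against at most 0.434%. Abcc8 stood at 1670 CPM against at most 1435, Scn3a at 52.8 against at most 44.8 and Mkrn1 at 121 against at most 119.8. Wfs1 stood lower there, at 158 CPM, against at least 177.

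Replicate 4 was apart in 4. The alpha cell factor gene Irx2 stood at 27.5 CPM, against at most 22.6 elsewhere, in the library that also had the most Gcg, at 18334 CPM. Il1r1 stood at 1008 CPM against at most 863 and Slc25a4 at 186 against at most 161. Slc16a1 stood lower there, at 1.90 CPM, against at least 2.28. The remaining case was Ucn3, lowest in replicate 3 at 279 CPM against at least 337.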

How the results depend on the processing

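No paired analysis was possible because only 1 group of samples was described. The shares of insulin, islet hormones, acinar markers and the 10 most abundant genes were recomputed with other totals. Under totals without the acinar markers they moved by less than the SD of the libraries. They also did so under TMM-scaled totals, but TMM factors average out over the libraries by construction, so a mean could move only little. Leaving out 1 library cannot move a mean by as much as the SD, so for that only the values are given. The number of genes at 1 CPM moved by less than 1.5-fold under TMM-scaled totals, 1 CPM per kb, 1 CPM in every library and each library left out. The number of genes that hold 50% of the counts was 707 without the acinar markers, against 579.5 ± 55.3, and 556 to 595 with a library left out. With libraries left out in turn, insulin took 14.1% to 15.4%, hormones 18.1% to 19.6%, acinar markers 4.88% to 6.50%, ribosomal protein genes 0.487% to 0.492% and the top 10 genes 22.6% to 23.6% of exon counts. Without the acinar markers in the total, the ribosomal protein share was 0.521%, more than 1 SD above its value of 0.490%. The common biological coefficient of variation was 7.60% to 9.47% with a library left out, lowest without replicate 2, and 8.81% with DESeq2 size factors, 9.09% with no filter, 8.48% with a filter of 1 CPM and 8.18% without acinar markers. The median SD over mean was 5.84% to 6.77% with a library left out, and 14.9% with no filter on low counts, which adds genes of few counts. The ratio of Ins2 to Ins1 was 2.39 with GENCODE lengths and 2.89 to 3.11 with a library left out.

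Of 196 gene levels, none moved by over 1 SD with TMM or DESeq2 size factors (ratios of 0.969 to 1.03). Both sets of factors average out over the libraries by construction, so these means could move only little. Without the acinar markers in the total all were 1.05 to 1.08 times as high, over 1 SD for 70. GENCODE lengths lowered 69 of 194 levels per kb by over 1.5-fold and raised 2. Of 87 ratios between genes, 67 kept their direction with GENCODE lengths, 20 turned and 30 moved over 1.5-fold. Leaving out 1 library moved 10 gene means by over 1.5-fold: to 0.560 CPM for Hk3, 8.72 for Jchain, 12.4 for C3 and 6.204 for Hmha1 without replicate 2, to 6.25 for Gm5771 and 24.4 for Prss3 without replicate 3, to 0.0211 for Amy2a5, 14.4 for Fn1 and 4.15 for C4b without replicate 4, and to 4.43 for Reg3g without replicate 1. Genes with few counts, such as Pax4 and Ghrl, are limited by counting.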
